A study of Mus musculus with 6 samples.

Results

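The genes described here are the 5 neighbours of the type 2 cytokine locus on mouse chromosome 11, Il5, Il13, Il4, Rad50 and Kif3a, chosen by symbol among 27179 gene IDs in the count table. All 5 were found, and all 5 were among the 12967 genes with enough counts to test. Their RNA was compared between mouse group 2 innate lymphoid cells (ILC2s) from a Chat positive sorting gate, with 3 libraries, and ILC2s from a Chat negative sorting gate, with 3 libraries. Chat encodes choline acetyltransferase, which makes acetylcholine, and the comparison asks which transcripts differ between ILC2s sorted as carrying it and ILC2s sorted as lacking it. The strain, age and sex of the mice, the tissue, any stimulus and how Chat was detected are not given in the sources used, and no label states whether a gate's samples are different mice.

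The type 2 locus holds 3 cytokine genes that ILC2s and T helper 2 cells use to direct allergic and anti-worm responses. IL-5 keeps eosinophils alive and draws them out of the bone marrow, IL-13 drives mucus and smooth muscle responses, and IL-4 instructs B cells to make IgE and T cells to become T helper 2 cells. In mouse T helper 2 cells, a locus control region within the 3′ part of Rad50 contacts the cytokine promoters. Rad50 itself encodes an ATPase of the MRE11-RAD50-NBS1 complex that senses DNA breaks, and Kif3a encodes a motor chain of kinesin-2, which builds cilia and moves cargo along microtubules.

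On the mm10 assembly (GRCm38) the 5 genes span 159.4 kb. In chromosome order they are Kif3a (Entrez 16568, chr11:53565701-53604248, plus strand), Il4 (16189, chr11:53612460-53618665, minus), Il13 (16163, chr11:53631323-53634702, minus), Rad50 (19360, chr11:53649519-53707319, minus) and Il5 (16191, chr11:53720794-53725103, plus). The gaps between them measured 8.21, 12.7, 14.8 and 13.5 kb in that order. The GENCODE vM21 annotation of the same assembly places the antisense transcript Gm12214 opposite Il5 and lets an Il4 transcript reach into the 3′ end of Kif3a on the other strand. The strand setting of the counting is not given in the sources used, so reads of such overlapping pairs cannot be told apart.

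Promoters were compared because the 3 cytokine genes lay in the same direction between the gates. The RefSeq promoter table of GRCm38.p6 held entries for 4 of the 5 genes, Il5, Il13, Il4 and Kif3a, each running from 250 bases before to 50 bases after a transcription start. For Il4, which has 2 entries, the one of the upstream start is printed. Capitals mark matches on either strand to GATAA (bound by GATA factors), GGAAA (the core bound by NFAT), TGANTCA (AP-1) and TTCNNNGAA (STAT). The windows are chr11:53720544-53720843 (plus strand) for Il5, chr11:53634653-53634952 (minus) for Il13 and chr11:53618616-53618915 (minus) for Il4, written 5′ to 3′ along the gene.
Il5: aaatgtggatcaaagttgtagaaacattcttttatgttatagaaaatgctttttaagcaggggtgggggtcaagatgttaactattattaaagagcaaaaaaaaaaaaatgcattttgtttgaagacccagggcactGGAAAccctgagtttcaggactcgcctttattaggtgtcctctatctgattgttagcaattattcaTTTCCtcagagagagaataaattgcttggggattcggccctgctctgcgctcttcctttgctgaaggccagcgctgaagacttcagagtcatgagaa
Il13: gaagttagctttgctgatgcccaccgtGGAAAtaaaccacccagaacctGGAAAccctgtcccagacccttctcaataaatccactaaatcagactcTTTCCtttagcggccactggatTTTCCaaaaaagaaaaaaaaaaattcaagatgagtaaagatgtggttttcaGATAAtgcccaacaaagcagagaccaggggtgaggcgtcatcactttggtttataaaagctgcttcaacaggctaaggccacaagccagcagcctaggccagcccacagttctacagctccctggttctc
Il4: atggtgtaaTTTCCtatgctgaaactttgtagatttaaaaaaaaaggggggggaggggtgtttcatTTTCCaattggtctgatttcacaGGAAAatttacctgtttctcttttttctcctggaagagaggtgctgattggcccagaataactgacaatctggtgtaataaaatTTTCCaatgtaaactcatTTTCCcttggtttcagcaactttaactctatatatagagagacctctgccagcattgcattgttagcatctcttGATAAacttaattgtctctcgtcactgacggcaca

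The Il5 window held 2 GGAAA matches and no GATAA match. Other forms of the GATA site were not searched, so this does not show that the window lacks a GATA site. The Il13 window held 4 GGAAA matches and 1 GATAA match, which lay 80 to 76 bases before the start. The upstream Il4 window held 5 GGAAA matches, and its 1 GATAA match lay at bases 16 to 20 of the transcript. None of these 3 windows matched TGANTCA or TTCNNNGAA, and no matches within them overlapped. The Kif3a window held 1 GGAAA match and the other Il4 window 1 GGAAA match overlapping 1 TTCNNNGAA match. Of all 32851 promoter windows, 61.3% held at least 1 GGAAA match, 2.65% at least 4 and 0.728% at least 5, and 25.4% held GATAA, 7.81% TGANTCA and 8.30% TTCNNNGAA. GC content was 40.0% for Il5, 46.0% for Il13, 38.0% for the upstream Il4 window and 59.7% for Kif3a, against a median of 52.7% over all windows.

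Libraries held 37154269 to 50361306 counts in the Chat positive gate and 42503612 to 44061509 in the Chat negative gate. Chat checked the labels, at 188, 169 and 205 CPM in Chat positive libraries 1, 2 and 3 and at 16.6, 26.5 and 17.5 CPM in Chat negative libraries 1, 2 and 3. CPM are counts scaled to a common library total with TMM factors, edgeR's correction for library composition. All 10 ILC2 markers examined, among them Gata3, Icos and Il2ra, were detected, and their summed level was 12380 to 12523 CPM in Chat positive and 11647 to 12655 CPM in Chat negative libraries, most of it from Il2ra, Icos and Gata3. The sum hides opposite shifts, since Il2ra was highest and Gata3 lowest in library 2 of each gate. None of the 10 was called in edgeR without the block. With the block 1 was called, Il1rl1, the IL-33 receptor chain, at 133, 82.0 and 159 CPM in Chat positive libraries 1, 2 and 3 and at 79.1, 58.7 and 119.9 CPM in Chat negative libraries 1, 2 and 3 (block adjusted p = 0.0419 in edgeR). Its gates overlapped, and that fit called 44 of 12967 genes, or 0.339%. With the block, limma-voom and edgeR without robust dispersions each called 1 gene in all, Chat, and so not Il1rl1.

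Il5, Il13 and Il4 were each higher in the Chat positive library of every replicate number, while Rad50 and Kif3a were not. Il13 was 1.42-fold higher with no overlap between the gates, Il5 was 1.60-fold higher with overlap, and Il4 was 1.23-fold higher with wide overlap. Of all genes tested, 22.3% were higher in the Chat positive library of every number, and 4.53% were higher there with no overlap. None of the 5 passed edgeR's quasi-likelihood test at 5% after adjustment over all genes. When the replicate number was added as a block, Il5 alone of the 5 passed, in a fit that called 0.339% of all genes. In bulk RNA, a larger share of cells that make a cytokine and more of its RNA per cell cannot be told apart.

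**Figure D1:**
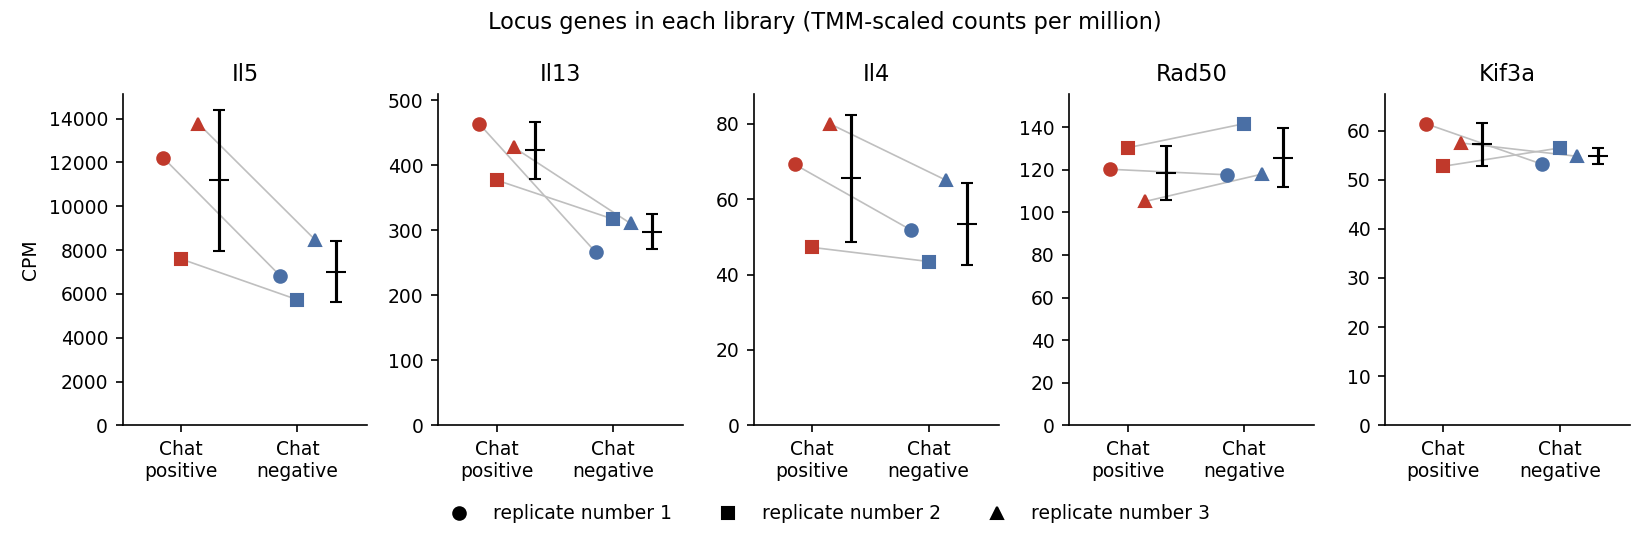
CPM of each locus gene in the 6 libraries, with the Chat positive gate left of the Chat negative gate, symbols for replicate numbers, grey lines joining equal numbers, and black bars for mean ± SD (n = 3). Every axis starts at 0. All 3 lines slope down to the right for Il5, Il13 and Il4, while the lines of Rad50 and of Kif3a differ in direction.

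Il5, the eosinophil growth factor, stood at 12200, 7594 and 13765 CPM in Chat positive libraries 1, 2 and 3 and at 6833, 5732 and 8473 CPM in Chat negative libraries 1, 2 and 3. Chat positive 1 and 3 lay above every Chat negative library, and Chat positive 2 lay below Chat negative 3. The means were 11186 ± 3208 CPM in Chat positive and 7012 ± 1379 CPM in Chat negative cells (SD, n = 3 each). The log2 change was 0.67 (SE 0.25), with an edgeR unadjusted p of 0.0318 and an adjusted p of 1.00. Within a gate the highest library exceeded the lowest by 1.81-fold in Chat positive and 1.48-fold in Chat negative cells, against a 1.60-fold difference between the gates.

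The pairs with the same number gave Il5 folds of 1.79, 1.32 and 1.62 for numbers 1, 2 and 3. With the number as a block, the log2 change was 0.65 (SE 0.08) and edgeR's adjusted p was 0.0472. That fit called 44 of 12967 genes, or 0.339%, and 28 of them, or 0.216%, were higher in Chat positive cells, so 1 of the 5 locus genes was called against this background. The call depended on the fit. With the block, the adjusted p of Il5 was 0.0630 in edgeR's newer quasi-likelihood method, which called none of the 5 and 0.054% of all genes (0.0386% higher in Chat positive cells). It was 0.0872 without robust dispersions, 0.0547 in limma-voom, 0.131 in DESeq2 and 0.0862 once length and GC content of transcripts had been corrected for.

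Il13, which acts on epithelium and smooth muscle, was at 464, 377 and 427 CPM in Chat positive libraries 1, 2 and 3 and at 266.5, 317 and 310.5 CPM in Chat negative libraries 1, 2 and 3. Every Chat positive library exceeded every Chat negative one. Its means were 423 ± 43.6 and 298 ± 27.6 CPM in Chat positive and Chat negative cells (SD, n = 3 each), and its log2 change was 0.50 (SE 0.12). The edgeR unadjusted p was 0.00409, and the adjusted p was 1.00 without and 0.126 with the block. DESeq2 gave an adjusted p of 0.451 without and 7.98e-05 with the block, in a fit that called 476 of the 8693 genes given an adjusted p, or 5.48%, with 2.20% of the genes higher in Chat positive cells.

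Gates did not overlap for 1056 of all genes tested, or 8.14%, and 588, or 4.53%, were higher in Chat positive cells. Among the locus genes this was so for 1 of 5, Il13. A gene was higher in the Chat positive library of 3 of 3 numbers for 22.3% of all genes and for 3 of the 5 locus genes. No locus gene was called in edgeR without the block, in DESeq2 or in limma-voom, where edgeR called 1 gene in all (Chat, 0.00771%; adjusted p 0.0174, or 0.0961 with the block) and DESeq2 4 (0.0309%), of which 3 were higher in Chat positive cells (0.0231%). An unadjusted p under 0.05 was reached by 2 of the 5, Il5 and Il13, against 2.43% of all genes in edgeR.

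Il4, the T helper 2 inducing cytokine, was at 69.2, 47.2 and 80.0 CPM in Chat positive libraries 1, 2 and 3 and at 51.8, 43.5 and 65.0 CPM in Chat negative libraries 1, 2 and 3. Libraries of the 2 gates were interleaved, with Chat positive 2 below Chat negative 1 and 3. Mean levels were 65.5 ± 16.7 CPM in Chat positive and 53.4 ± 10.9 CPM in Chat negative cells (SD, n = 3 each). On the log2 scale Il4 differed by 0.29 (SE 0.23), and its edgeR adjusted p was 1.00, or 0.147 with the block. Its size rested on single libraries, since it was 0.48 without Chat positive 2, 0.11 without Chat positive 3, 0.16 without Chat negative 2 and 0.46 without Chat negative 3. With the block and with length and GC content of transcripts corrected for, it was 0.018. At 605 bases, the longest Il4 transcript was the shortest among the 5 genes.

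Rad50, the DNA break sensor whose body lies between Il13 and Il5, was at 120, 130 and 105 CPM in Chat positive libraries 1, 2 and 3 and at 118, 142 and 118 CPM in Chat negative libraries 1, 2 and 3. The gates overlapped and the direction differed between numbers. Kif3a, the kinesin-2 motor chain, was at 61.4, 52.7 and 57.5 CPM in Chat positive libraries 1, 2 and 3 and at 53.1, 56.5 and 54.7 CPM in Chat negative libraries 1, 2 and 3. The log2 changes were -0.08 (SE 0.13) for Rad50 and 0.06 (SE 0.11) for Kif3a, and both had an edgeR adjusted p of 1.00.

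Per kb of the longest GENCODE transcript, the order of levels was Il5, Il13, Il4, Rad50 and Kif3a in each of the 6 libraries. Il5 averaged 7278 ± 2087 CPM per kb in Chat positive and 4562 ± 897 in Chat negative cells, and Il13 351 ± 36.2 and 247 ± 22.9 CPM per kb. Il4 averaged 108 ± 27.7 CPM per kb in Chat positive and 88.3 ± 17.97 in Chat negative cells. Rad50 averaged 23.0 ± 2.45 and 24.4 ± 2.67 CPM per kb in Chat positive and Chat negative cells, and Kif3a 18.1 ± 1.37 and 17.3 ± 0.527 (SD, n = 3 each throughout). No neighbours in that order exchanged places in any library, and the closest pair, Rad50 and Kif3a, differed by 1.12-fold to 1.54-fold within a library.

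Il5 was among the most abundant RNAs of these cells. Of 21572 genes ranked by CPM per kb, it stood at ranks 3, 3 and 1 in Chat positive libraries 1, 2 and 3 and at ranks 5, 6 and 3 in Chat negative libraries 1, 2 and 3. Il13 ranked between 125 and 150 in Chat positive and between 185 and 233 in Chat negative libraries. Il4 ranked between 450 and 941 in Chat positive and between 607 and 1038 in Chat negative libraries, so its ranks overlapped between the gates. Rad50 and Kif3a ranked between 2697 and 4012 in all 6 libraries. These levels rest on the length of 1 transcript per gene, and the transcript that was read is not known.

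Across libraries the 5 genes fell into distinct patterns. Library 2 of each gate was the lowest of its gate for Il5 and for Il4, and the highest of its gate for Rad50. Il13 did not share this pattern, being lowest in library 2 among Chat positive cells and in library 1 among Chat negative cells. The summed markers of basophils, which make IL-4, were also lowest in library 2 of each gate, at 149, 53.7 and 168 CPM in Chat positive libraries 1, 2 and 3 and at 160, 62.5 and 232 CPM in Chat negative libraries 1, 2 and 3. Mcpt8 was the largest part of that sum in each library. Another basophil marker, Cd200r3, went the other way and was highest in library 2 of each gate, at 3.68, 14.6 and 4.87 CPM in Chat positive libraries 1, 2 and 3 and at 5.89, 18.3 and 8.47 CPM in Chat negative libraries 1, 2 and 3, while the basophil protease Prss34 and the IgE receptor chain Ms4a2 had 0 counts in all 6 libraries and Fcer1a at most 2. The myeloid markers, mostly Cd68, were likewise lowest there, at 8.33 and 8.37 CPM in Chat positive 2 and Chat negative 2 and at 20.2 to 24.4 CPM in the other 4 libraries. Markers of ILC2s went both ways in library 2 of each gate. Il7r was lowest there, at 732 CPM in Chat positive 2 and 797 CPM in Chat negative 2, against 1153 to 1497 CPM in the other 4 libraries. Il2ra was highest there, at 5755 CPM in Chat positive 2 and 5777 CPM in Chat negative 2, against 3619 to 4135 CPM in the other 4. The part of the basophil, myeloid and ILC2 transcripts in the pattern of Il5 and Il4 was not tested. The coefficient of variation within a gate was 28.7% and 19.7% for Il5 in Chat positive and Chat negative cells and 25.5% and 20.4% for Il4, against 10.3% and 9.24% for Il13, 10.7% and 10.9% for Rad50, and 7.59% and 3.04% for Kif3a.

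**Figure D2:**
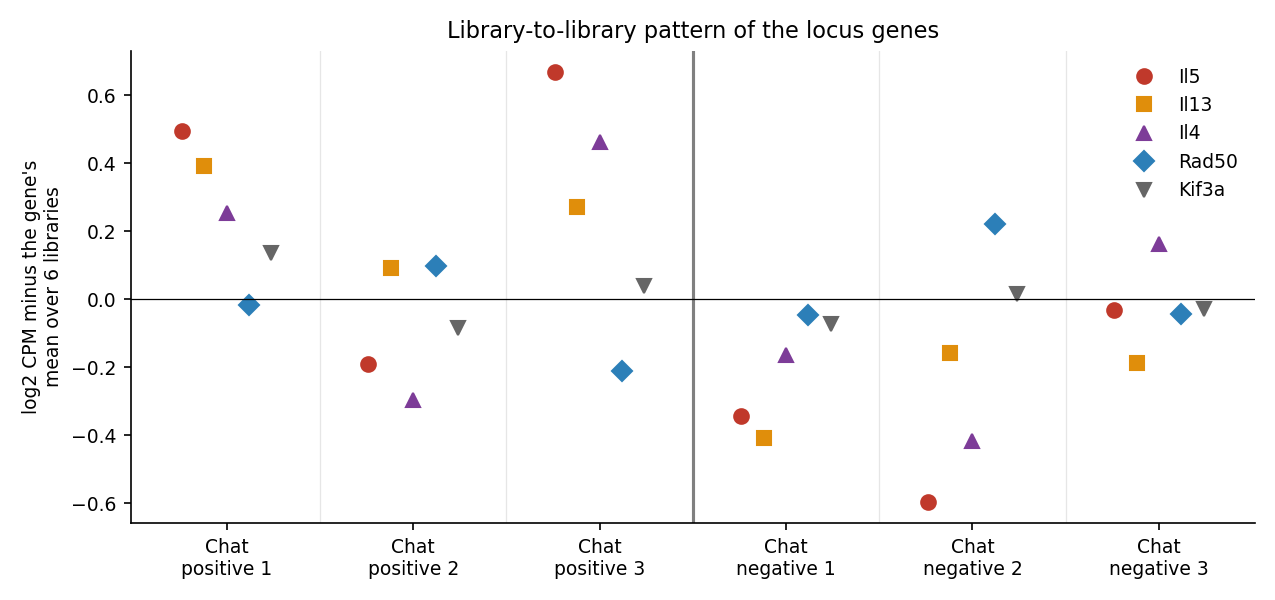
Log2 CPM of each locus gene after subtracting its own mean over the 6 libraries, with Chat positive libraries left of Chat negative ones. Il5 and Il4 move together from library to library, with library 2 low in each gate, while the Il13 points separate the gates at 0 and Kif3a stays near 0.

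The difference between the gates also varied with the replicate number, and in the same order for the 3 cytokines. Il13 was 1.74-, 1.19- and 1.38-fold higher in Chat positive cells for numbers 1, 2 and 3, and Il4 1.34-, 1.09- and 1.23-fold. For Il5, Il13 and Il4 alike, number 1 gave the widest and number 2 the narrowest difference. Chat itself differed by 11.4-, 6.37- and 11.7-fold for numbers 1, 2 and 3, so number 2 was also the pair in which the sorted gene differed least. The part of that smaller Chat difference in the cytokine values was not tested.

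Ratios between 2 genes of a library do not depend on how libraries are scaled, so they were used to compare how much the cytokines differed. The ratios were not corrected for length or GC content of transcripts. With the block, that correction moved the log2 change of Il4 from 0.280 to 0.018. It moved that of Il5 from 0.647 to 0.512 and that of Il13 from 0.503 to 0.426. There were 10 ratios among the 5 genes, each compared between gates with a two-sided exact permutation test of 3 against 3, whose smallest possible p is 0.1. The ratio of Il5 to Il4 was 69.3, 63.3 and 67.7 in Chat positive libraries 1, 2 and 3 and 51.9, 51.9 and 51.3 in Chat negative libraries 1, 2 and 3, as levels per kb. The 3 Chat negative values agreed within 0.362 (SD), although the Il5 level itself spread over 1.48-fold among those libraries. Its log2 difference was 0.37, all Chat positive libraries lay above all Chat negative ones, and the exact p was 0.1, or 0.333 adjusted over the 10 ratios. As background, 8.11% of the 12824 genes counted in every library had a ratio to Il4 that did not overlap between the gates. The median gene's log2 ratio to Il4 had an SD of 0.46 in Chat positive and 0.38 in Chat negative cells, against 0.07 and 0.01 for Il5.

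Il5 relative to Il13 did not separate the gates. This ratio was 20.6, 15.8 and 25.2 in Chat positive libraries 1, 2 and 3 and 20.1, 14.2 and 21.4 in Chat negative libraries 1, 2 and 3, as levels per kb. The log2 difference was 0.14, less than the SD of 0.34 and 0.32 within the gates (exact permutation p = 0.6). It was -0.02 without Chat positive 3 and -0.04 without Chat negative 2. Il13 relative to Il4 was 3.36, 4.01 and 2.68 in Chat positive and 2.58, 3.66 and 2.40 in Chat negative libraries 1, 2 and 3. Here the log2 difference was 0.22, again with overlap (exact permutation p = 0.4), although the Chat positive library was higher for each of the 3 numbers.

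Kif3a, the steadiest of the 5, and Rad50 gave a view of the cytokines against their own neighbours. Il13 relative to Kif3a was 19.8, 18.8 and 19.5 in Chat positive and 13.2, 14.7 and 14.9 in Chat negative libraries 1, 2 and 3, a log2 difference of 0.44 with no overlap. Il13 relative to Rad50 was 16.5, 12.4 and 17.4 in Chat positive and 9.69, 9.58 and 11.3 in Chat negative libraries, a log2 difference of 0.59, also with no overlap. Both had an exact permutation p of 0.1 and an adjusted p of 0.333. Ratios to Kif3a did not overlap between gates for 6.57% of genes, and ratios to Rad50 for 9.23%. Il5 relative to Kif3a had a log2 difference of 0.59 and Il5 relative to Rad50 one of 0.73, both with overlap and an exact permutation p of 0.2. Rad50 relative to Kif3a differed by -0.14 on the log2 scale, within the spread of the libraries (exact permutation p = 0.4). Il4 relative to Rad50 and to Kif3a had log2 differences of 0.36 and 0.22, both with overlap (exact permutation p = 0.4 and 0.5). The adjusted p of the 7 ratios with overlap lay between 0.4 and 0.6. Taken within replicate numbers, each of the 10 ratios had 1 sign for all 3 numbers, which gives the smallest p that an exact sign-flip permutation test over 3 numbers allows, 0.25. The 10 ratios share 5 genes and are not separate results. How often ratios of other genes have 1 sign was not computed. Of all single genes tested, 22.3% were higher in the Chat positive library of 3 of 3 numbers. The log2 differences within numbers 1, 2 and 3 were 0.21, 0.22 and 0.23 for Il4 relative to Kif3a and 0.63, 0.50 and 0.63 for Il5 relative to Kif3a.

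**Figure D3:**
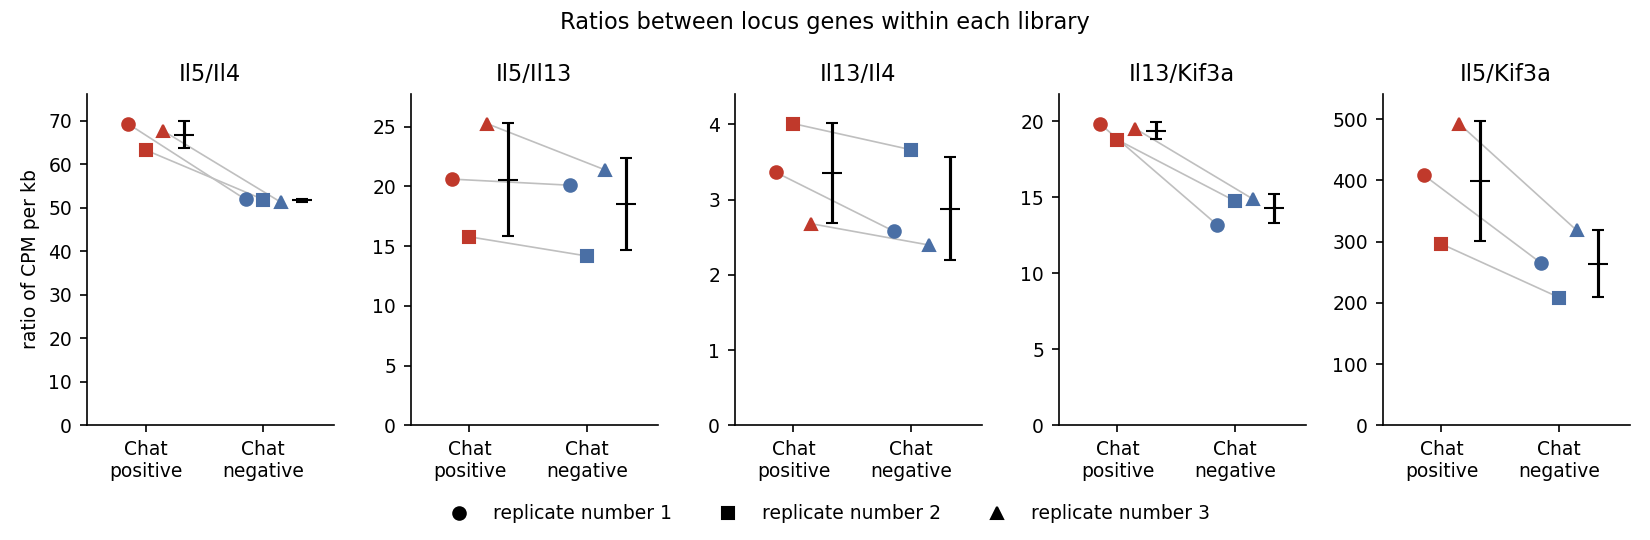
Ratios of CPM per kb between locus genes in each library, with Chat positive left of Chat negative, symbols for replicate numbers and black bars for mean ± SD (n = 3). The Il5 to Il4 ratio is 63.3 to 69.3 in Chat positive and 51.3 to 51.9 in Chat negative libraries, while the Il5 to Il13 ratio overlaps between the gates.

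Genes around the locus were then examined for the same direction. Within 500 kb of the span the count table held 21 other genes, and 12 had enough counts to test. Their median log2 change was 0.14, against 0.00 for all genes tested, with 7 above and 5 below 0. No neighbour passed in edgeR with or without the block, where 0.339% of all genes passed with it. None separated the gates, against 8.14% of all genes. None had an edgeR unadjusted p under 0.05, against 2.43% of all genes. For 12 genes, counts of 0 lie near these shares. DESeq2 and limma-voom also called none. Septin8, a cytoskeletal GTPase 16.1 kb beyond Kif3a, stood at 187 ± 18.8 CPM in Chat positive and 193 ± 20.2 in Chat negative cells. Irf1, an interferon-induced transcription factor 44.9 kb beyond Il5, stood at 176 ± 26.5 and 199 ± 28.2 CPM in Chat positive and Chat negative cells, and was lower in the Chat positive library of all 3 numbers (log2 change -0.18, SE 0.16).

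Slc22a5, a carnitine transporter 139.4 kb beyond Il5, stood at 12.7 ± 1.90 CPM in Chat positive and 11.5 ± 1.20 in Chat negative cells. The next 3 were low. Shroom1 stood at 0.836 ± 0.747 CPM in Chat positive and 0.280 ± 0.0882 in Chat negative cells, where Chat positive 1 alone held 1.68 CPM, and its log2 change of 1.56 had an SE of 0.75. Sowaha stood at 1.67 ± 0.754 and 1.17 ± 0.546 CPM and the carnitine transporter Slc22a21 at 1.85 ± 0.461 and 1.298 ± 0.609 CPM in Chat positive and Chat negative cells. The oocyte growth factor Gdf9 and the transporter Slc22a4 were left untested, with no more than 19 and 2 counts in any library.

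**Figure D4:**
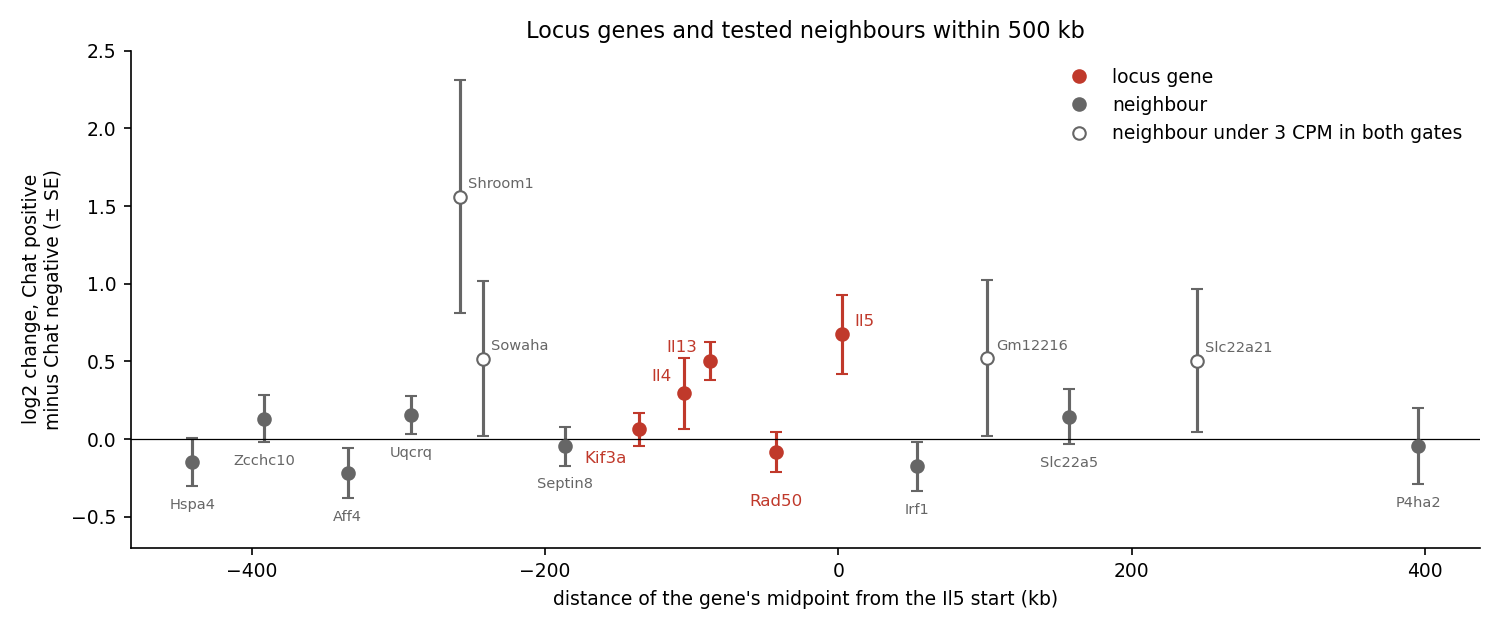
Log2 change (Chat positive minus Chat negative, ± SE) of the 5 locus genes in red and 12 tested neighbours in grey, by distance of the gene's midpoint from the Il5 start. Open points are neighbours under 3 CPM in both gates. Il5, Il13 and Il4 lie above 0, Rad50 and Kif3a near 0, and well-expressed neighbours between -0.22 and 0.16.

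Receptors for these cytokines were partly present and did not differ between the gates beyond their spread. Il4ra, the chain shared by the IL-4 and IL-13 receptors, stood at 746 ± 26.2 CPM in Chat positive and 730.0 ± 50.2 in Chat negative cells. Il2rg, the common gamma chain that completes the type I IL-4 receptor, stood at 932 ± 90.3 and 896 ± 18.5 CPM, and Il13ra1, which completes the type II receptor, at 1.55 ± 0.379 and 1.75 ± 0.721 CPM in Chat positive and Chat negative cells. The IL-5 receptor alpha chain Il5ra and the decoy receptor Il13ra2 had 0 counts in all 6 libraries, a result that leaves room for 3 counts per library by counting error alone, which is 0.0807 CPM where the total is smallest. The signalling beta chain Csf2rb stood at 20.5 ± 13.4 CPM in Chat positive and 19.4 ± 10.7 in Chat negative cells, and its relative Csf2rb2 at 5.68 ± 3.78 and 5.20 ± 2.87 CPM. These beta chains are close in sequence, so their counts are uncertain. Of 7 listed chains, 5 were tested, with a median log2 change of 0.06 and none called.

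Of 12 signalling genes below those receptors, 2 lay above 0, the median being -0.07 on the log2 scale, and none was called in edgeR with or without the block. The adaptor Irs2, which links the IL-4 receptor to growth signals, stood at 505 ± 199 CPM in Chat positive and 735 ± 209 in Chat negative cells, and the kinase Jak1 at 1113 ± 95.2 and 1247 ± 70.0 CPM. Stat5a, an activator downstream of IL-2 family cytokines, stood at 47.8 ± 5.80 and 43.4 ± 4.76 CPM, and its target Cish at 554 ± 45.8 and 592 ± 58.4 CPM in Chat positive and Chat negative cells.

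Transcription factors tied to the type 2 locus lay on balance the other way from the cytokines. Of 29 listed, 25 were tested, 9 lay above 0 and 16 below (Irf1 among them), with a median log2 change of -0.11 and none called in edgeR with or without the block. Gata3, the factor that opens the locus in T helper 2 cells and ILC2s, stood at 2425, 1603 and 2355 CPM in Chat positive libraries 1, 2 and 3 and at 2468, 1829 and 2545 CPM in Chat negative libraries 1, 2 and 3. Like Il5 and Il4, it was lowest in library 2 of each gate, but its log2 change between the gates was -0.10 (SE 0.20).

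Batf, an AP-1 factor, stood at 359 ± 33.7 CPM in Chat positive and 296 ± 17.6 in Chat negative cells, with no overlap. Nfatc2, the calcium-activated factor that binds GGAAA cores, lay the other way with no overlap, at 118 ± 14.9 CPM in Chat positive and 144 ± 5.74 in Chat negative cells. The receptor Notch1 stood at 110 ± 3.20 and 128 ± 9.92 CPM, also without overlap, and Zfpm1, a partner that restrains GATA factors, at 1.65 ± 0.0737 and 3.48 ± 1.62 CPM in Chat positive and Chat negative cells, where Chat negative 3 lay among the Chat positive libraries. Gates did not overlap for 4 of the 25 factors, or 16%, against 8.14% of all genes.

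Chromatin factors tied to the locus lay above 0 in 5 of 18 cases, with a median of -0.07 on the log2 scale and none called in edgeR with or without the block. The remodeller Chd4 stood at 81.4 ± 8.06 CPM in Chat positive and 103 ± 5.27 in Chat negative cells, and the acetyltransferase Ep300 at 89.2 ± 12.6 and 113 ± 5.59 CPM. Both had no overlap between the gates. Gates did not overlap for 4 of the 18, or 22.2%, all lower in Chat positive cells, against 8.14% of all genes. Of all 12967 genes tested, 468 were lower without overlap. Mbd2, which binds methylated DNA, stood at 39.2 ± 11.5 CPM in Chat positive and 49.9 ± 13.0 in Chat negative cells.

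Other cytokines and growth factors shared the direction of the locus genes in part. Of 20 listed, 13 were tested, 8 lay above 0 and the median log2 change was 0.20, with none called without the block. With the block, 2 of the 13 were called higher, Il10 and Il24, in the fit that called 0.216% of all genes higher. With the block, neither was called in limma-voom, without robust dispersions or with length and GC content corrected for, and the newer edgeR method called 1, Il24, while DESeq2 called both. The anti-inflammatory cytokine Il10 stood at 73.5, 74.0 and 77.3 CPM in Chat positive libraries 1, 2 and 3 and at 47.5, 56.5 and 55.4 CPM in Chat negative libraries 1, 2 and 3 (block adjusted p = 0.0419 in edgeR). Il24, a relative of IL-10, stood at 36.5 ± 9.85 CPM in Chat positive and 20.7 ± 3.84 in Chat negative cells (block adjusted p = 0.0312 in edgeR). The repair factor Areg stood at 335 ± 32.1 and 243 ± 25.2 CPM, and the growth factor Csf2 at 56.9 ± 27.6 and 31.2 ± 10.2 CPM in Chat positive and Chat negative cells. The gates did not overlap, with Chat positive cells higher, for 3 of the 13, Il10, Il24 and Areg, or 23.1%, against 4.53% of all genes, and Chat positive 2 lay below Chat negative 3 for Csf2.

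**Figure D5:**
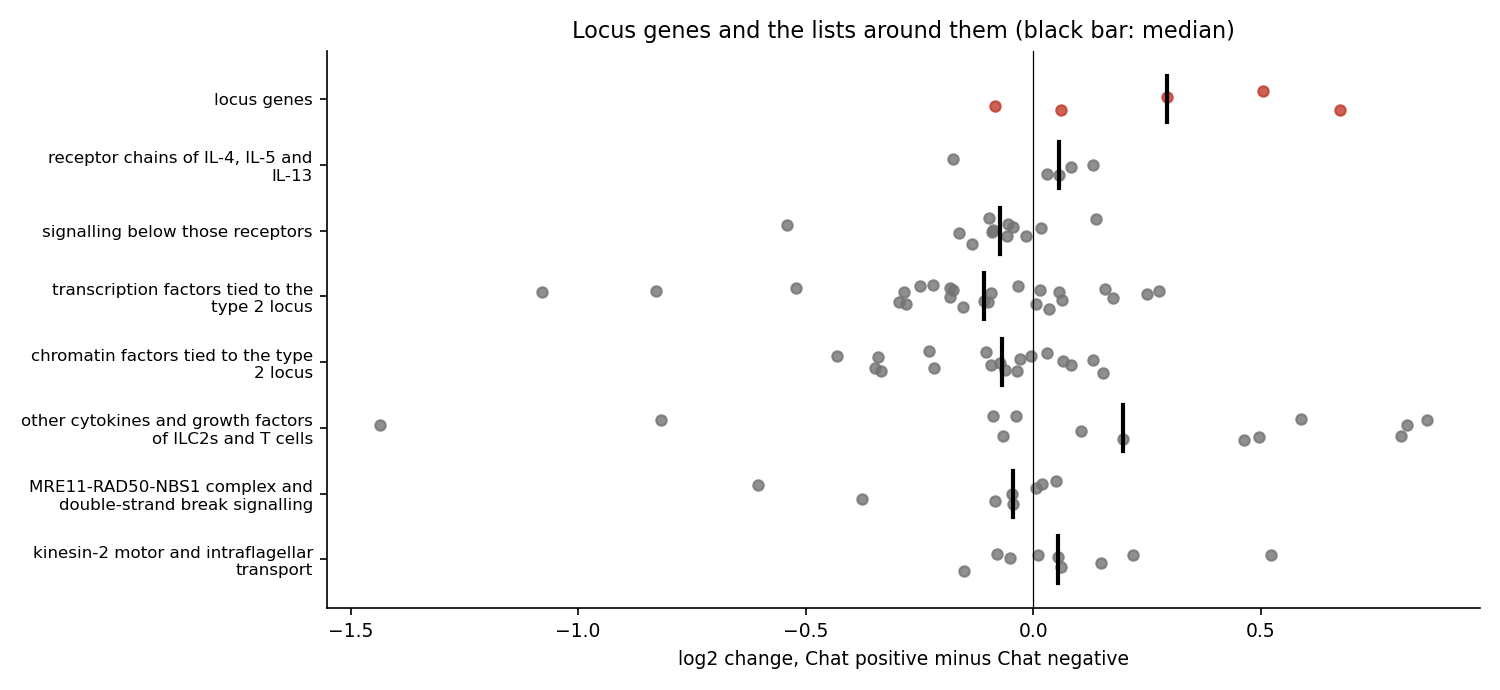
Log2 change of tested genes (Chat positive minus Chat negative), 1 point per gene, for the 5 locus genes in red and 7 lists of related genes in grey, with a black bar at each median. The medians are 0.29 for the locus genes, 0.20 for other cytokines and -0.11 for transcription factors.

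Partners of the 2 genes that flank and separate the cytokines were also listed. The list of the RAD50 complex and its break signalling, Rad50 included, lay above 0 in 3 of 8 cases and had a median of -0.05 on the log2 scale, with none called. Nbn, which recruits the break kinase to the complex, stood at 21.9 ± 3.36 CPM in Chat positive and 22.5 ± 3.56 in Chat negative cells, and Rint1, a RAD50-interacting protein, at 27.0 ± 1.02 and 27.9 ± 2.44 CPM. The break kinase Atm stood at 19.9 ± 4.37 CPM in Chat positive and 25.8 ± 6.29 in Chat negative cells and the mediator Mdc1 at 8.54 ± 2.52 and 13.0 ± 4.29 CPM, both lower in the Chat positive library of all 3 numbers. The list of kinesin-2 and intraflagellar transport genes, Kif3a included, lay above 0 in 6 of 9 tested cases and had a median of 0.05, with none called. Kifap3, the accessory chain of the KIF3A motor, stood at 11.7 ± 1.59 CPM in Chat positive and 13.0 ± 0.746 in Chat negative cells, and the transport subunits Ift20 and Ift172 had log2 changes of 0.22 (SE 0.17) and 0.52 (SE 0.28), and Ift57 one of 0.15 (SE 0.22). Over all 7 lists without the locus genes, 88 of 102 genes were tested, and 9 had an edgeR unadjusted p under 0.05 without the block, where 2.43% of all genes had one. Without the block, edgeR, DESeq2 and limma-voom called none of them. DESeq2 with the block called 19 of these 88, among them Chd4 and Ep300 lower and Batf and Areg higher, in the fit that called 5.48% of the genes given an adjusted p. The lists were chosen with earlier results of these data known. Their shares beside those of all genes are therefore no test.

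The genes most like each cytokine over the 6 libraries were sought among 8375 others of at least 10 CPM, by the root mean square difference of log2 CPM after subtracting each gene's own mean. For Il5 the nearest were Ly96 (0.10), Galc (0.11), Gimap3 (0.11), Pkib (0.13) and Gimap6 (0.13). Galc, a lysosomal galactosylceramidase, stood at 52.8, 35.3 and 56.2 CPM in Chat positive libraries 1, 2 and 3 and at 27.4, 25.99 and 31.8 CPM in Chat negative libraries 1, 2 and 3, without overlap. Because Galc was chosen by likeness to Il5, its higher level in Chat positive cells is no separate result. Il4 came 24th for Il5, at 0.19, while Il13 was 196th, at 0.28, and Rad50 was 5931st, at 0.56.

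For Il13 the nearest were Areg (0.06), Ddt (0.06), Mras (0.09), Gstm1 (0.09) and Il10 (0.09), so 2 of its 5 nearest genes were secreted ILC2 mediators encoded on other chromosomes. All 5 separated the gates, which follows from their choice by likeness to Il13 and is no separate result. Mras, a small GTPase, stood at 67.6, 57.5 and 62.6 CPM in Chat positive libraries 1, 2 and 3 and at 45.6, 46.0 and 45.5 CPM in Chat negative libraries 1, 2 and 3. Among the locus genes Kif3a came nearest to Il13, at rank 780, ahead of Il4 at 2053 and Il5 at 2142. This distance also favours a gene that varies little, and Kif3a had a log2 change of 0.06. Its rank therefore does not show that it followed Il13.

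For Il4 the nearest were Ctla2b (0.03), Gnpda2 (0.05), Aqp9 (0.06), Crem (0.06) and Tcirg1 (0.06). Ctla2b, related to cathepsin propeptides, stood at 93.0, 64.7 and 108 CPM in Chat positive libraries 1, 2 and 3 and at 72.6, 57.9 and 87.3 CPM in Chat negative libraries 1, 2 and 3. Crem, a cAMP-responsive factor, stood at 262, 197 and 306 CPM in Chat positive libraries 1, 2 and 3 and at 209, 165 and 270 CPM in Chat negative libraries 1, 2 and 3. Il5 was at rank 520 for Il4. These ranks describe 6 libraries and carry no test.

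Other cells that make type 2 cytokines were looked for by their markers. Of 8 mast cell markers, 5 had 0 counts in all libraries (Cpa3, Tpsb2, Tpsab1, Ms4a2 and Mcpt4), and nearly all of the summed 157 to 276 CPM in Chat positive and 153 to 247 CPM in Chat negative libraries came from Kit. The 8 T cell markers summed to 43.3 to 55.7 CPM in Chat positive and 38.7 to 53.6 in Chat negative libraries. Most of that sum came from Cd3g and Cd28. Cd3g lay at 14.6 to 39.1 CPM in Chat positive and 19.1 to 39.8 CPM in Chat negative libraries. Cd28 lay at 6.71 to 28.8 and 4.56 to 22.4 CPM. Cd3e and Cd3d were counted in all libraries, while Cd8a and Cd5 had no more than 10 counts. The 8 eosinophil markers summed to 7.53 to 9.89 and 8.34 to 10.9 CPM, nearly all of it from Ccr3. Of these markers 4, Ear1, Ear2, Ear6 and Il5ra, had 0 counts. Markers of ILC1 and NK cells summed to 8.67 to 17.1 CPM in Chat positive and 14.2 to 23.2 in Chat negative libraries, those of ILC3 to 3.49 to 5.34 and 1.59 to 6.90, those of NKT and gamma delta T cells to 5.69 to 7.76 and 7.53 to 8.75, and those of B cells, mostly Cd79b, to 68.6 to 85.7 and 66.2 to 74.2. No sum, that of the basophil markers included, separated the gates, and no marker of another cell type was called in edgeR with or without the block.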

How the data were processed

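The authors deposited a table of 27179 Entrez IDs with raw counts for 6 libraries, not normalized, judging from whole numbers with different sums. Library preparation used a SMARTer kit for ultra-low input, per the labels' protocols. Tools named in the submitters' processing notes are STAR 2.3.0 and CASAVA 1.8.2, with the mm10 build. The counting program and its strand setting are not given in the sources used. RefSeq's GRCm38.p6 tables, which gave coordinates and promoters, held 25275 of the IDs. Transcript lengths came from GENCODE vM21.

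In R 4.3.3, genes passing edgeR's filterByExpr (12967) were tested with edgeR 4.0.16 (TMM scaling, quasi-likelihood test, robust dispersions, two-sided, Benjamini-Hochberg adjustment over all genes, threshold 5%). Alternatives used DESeq2 1.42.0, limma 3.58.1, other scalings and filters, and left out libraries. Of these fits, only edgeR's quasi-likelihood fit without the block was tested on simulated counts. Fits with the block, DESeq2 and limma-voom were not. Libraries of the same number deviated together (correlations 0.29, 0.67 and 0.43 for numbers 1, 2 and 3), so numbers were treated as pairs in the block. Chat positive 3 with Chat negative 1 gave 0.301, and Chat positive 1 with Chat negative 3 gave 0.197. Correlations of a number 2 library with another number lay between -0.535 and -0.34. The data thus set number 2 apart but hardly tell numbers 1 and 3 from a swap. Treating equal numbers as pairs rests on the data, not on a label.

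Libraries of a gate differed by more than counting noise (chi-square over its degrees of freedom 29.9 or more), so each counts once. Since no label states separate animals, the p-values reflect the spread of these samples alone, and that spread may be technical. Limits from a count of 0 cover counting error only. The members and gene lists were chosen with earlier results of these data known. Genes named are the locus genes, the 4 nearest neighbours on each side whose symbols are not provisional (Gm and Rik names were passed over), the 4 members of each list with the smallest p, all receptor chains, Gata3, and the 5 nearest genes by likeness. A gene that this rule names is not reported here.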

Additional observations from a re-analysis of the deposited data

How the results depend on the processing

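Over 24 alternatives each, the log2 change ranged from 0.48 to 0.89 for Il5, 0.35 to 0.62 for Il13 and 0.02 to 0.48 for Il4, always above 0. It ranged from -0.16 to 0.01 for Rad50, which turned only without Chat negative 2 (0.01), and from -0.02 to 0.14 for Kif3a, which turned only without both number 1 libraries (-0.02). Leaving out 1 library gave 0.48 to 0.89 for Il5, 0.43 to 0.58 for Il13 and 0.11 to 0.48 for Il4. The replicate block called Il5 (log2 change 0.65), and DESeq2 with the block called Il13 (0.495). Each of these fits called 1 locus gene, and no other alternative called any. The number of genes called, 1 in edgeR, was 44 with the replicate block (28 higher in Chat positive cells), 4 with the block and the length and GC correction, 4 in DESeq2 (3 higher), 476 in DESeq2 with the block (191 higher) and 7 in edgeR's newer method with the block (5 higher). That method was chosen after seeing the data. The count was 0 to 1 without single libraries, being 0 without library 1 or library 3 of either gate, 0 without number 1 or 3 and 2 without number 2. Of the listed genes, 2 were called with the block, 19 in DESeq2 with the block and 1 in the newer method with the block. DESeq2 with the block gave no adjusted p for 8 of the low genes named. Taken within replicate numbers, the mean paired difference of each of the 10 ratios is by arithmetic the unpaired one, so pairing could not change its size. The exact sign-flip permutation p was 0.25 for each, the smallest that 3 numbers allow.

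The Il5 to Il13 ratio turned without Chat positive 3 (-0.018) and without Chat negative 2 (-0.039), and its range over left-out libraries was -0.039 to 0.321. Among other named genes, the block with the correction turned Septin8 (0.008) and Il2rg (-0.028). Leaving out 1 library or both libraries of a number turned the direction of some uncalled genes, with ranges of -0.129 to 0.028 for Septin8, -0.019 to 0.320 for Slc22a5, -0.024 to 0.118 for Il2rg, -0.602 to 0.147 for Il13ra1 and -0.024 to 0.066 for Il4ra. The ranges were -0.460 to 0.577 for Csf2rb2, -0.571 to 0.626 for Csf2rb, -0.114 to 0.027 for Rint1, -0.162 to 0.083 for Nbn and -0.236 to 0.067 for Gata3. The cause of these changes was not tested. With 3 libraries a gate, the Il5 SE of 0.25 without the block limits what can be called, and at a ratio's smallest p of 0.1 no ratio can pass 0.05.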
